A study of Homo sapiens with 14 samples.

Results

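The trefoil factor genes TFF1, TFF2, and TFF3 and the anterior gradient genes AGR2 and AGR3 were followed in RNA-Seq of MDA-MB-231 cells, an established human triple-negative breast cancer (TNBC) line. These 5 genes were picked by name from a table of 19410 genes, because TFF2 was lost in every edited line and AGR2 in the MLL1-KO lines. The levels against parental cells were therefore used for the choice, and they are given as a description without a test. A row was found for 4 of the 5 genes (AGR3 was not analysed here), and all 4 passed the filter of at least 1 TPM (reads scaled by transcript length and by library size) in at least 2 libraries, which left 13540 genes for testing. TFF1, TFF2, and TFF3 passed it only through the parental libraries.

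The 14 libraries came from 7 conditions with 2 libraries each. Parental MDA-MB-231 cells were compared with 6 lines edited by CRISPR/Cas9, which were SAP30-KO1 and SAP30-KO2 without SAP30, SIN3A+SIN3B-DKO1 and SIN3A+SIN3B-DKO2 without SIN3A and SIN3B, and MLL1-KO1 and MLL1-KO2 without MLL1. SAP30 is a subunit of the SIN3 corepressor complex, SIN3A and SIN3B are its scaffolds, and MLL1 (gene MLL, also KMT2A) is a histone H3 lysine 4 methyltransferase. All cells were cultured without further treatment. According to the study's methods, edited cells passed through puromycin selection, and several single knockout cells were grown and mixed into each line. The reference was the parental line and not a line carrying a scrambled guide, so the edit cannot be told apart from selection and cell picking in any comparison with parental cells. No source says that libraries of a condition came from separate cultures, so p-values measure only the spread between these libraries.

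Trefoil factors are small secreted peptides of mucous epithelia, where they are released with mucins and take part in repair of the surface layer. AGR2 and AGR3 belong to the protein disulfide isomerase (PDI) family of the endoplasmic reticulum (ER), and AGR2 is needed for folding and secretion of mucins. TFF1, TFF3, AGR2, and AGR3 are known as estrogen-responsive genes of luminal breast tumors.

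Libraries held 18415759 to 23162846 recovered reads, and 1 read was worth from 0.167 to 0.209 TPM for TFF2. RNA of the targeted genes was checked first. SAP30 was at 80.8 ± 2.76 TPM in parental cells and at 3.43 ± 0.416 and 3.86 ± 1.56 TPM in SAP30-KO1 and SAP30-KO2. SIN3B was at 76.2 ± 1.63 TPM in parental cells and at 49.6 ± 0.887 and 46.6 ± 4.36 TPM in the double knockout lines, whereas SIN3A was at 44.2 ± 1.64 TPM in parental cells and at 61.6 ± 1.37 and 55.1 ± 0.0536 TPM in the libraries labelled SIN3A+SIN3B-DKO1 and SIN3A+SIN3B-DKO2. SIN3A RNA thus goes against a loss of transcript in these 4 libraries, and SIN3B RNA goes with a lower level. RNA does not measure the protein. The paper states that knockout cells were checked by immunoblot, which is not part of these data. Directions drawn for these libraries below therefore rest on the labels and on that check. MLL was at 52.8 ± 5.46 TPM in parental cells and at 16.6 ± 1.14 and 26.7 ± 1.35 TPM in MLL1-KO1 and MLL1-KO2. MLL was also at 27.3 ± 6.11 and 33.4 ± 2.90 TPM in SAP30-KO1 and SAP30-KO2 (SD, n = 2 throughout). Of the mesenchymal markers VIM, CD44, ZEB1, CAV1, SPARC, and AXL, 5 of 6 were above 1 TPM in parental cells, SPARC being at 0.254 ± 0.0785 TPM. Of the genes that should be low in this line, ESR1, PGR, and FOXA1 were at 0.0404 ± 0.000752, 0.102 ± 0.0516, and 0.104 ± 0.0275 TPM, while ERBB2, EPCAM, GATA3, and CDH1 were at 42.1 ± 0.965, 19.2 ± 0.0498, 11.9 ± 1.27, and 1.16 ± 0.125 TPM in parental cells.

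Transcripts of all 3 trefoil factor genes were present in both parental libraries and absent, or close to absent, in all edited lines. The genes lie side by side on the minus strand of chromosome 21 (GRCh37, GENCODE release 44 annotation), TFF3 at chr21:43731777-43735519, TFF2 at chr21:43766466-43771106, and TFF1 at chr21:43782391-43786644. TFF2 (ENSG00000160181), a peptide with a pair of trefoil domains known from the stomach, was the most abundant of them. It stood at 43.1 and 45.04 TPM in the parental libraries, from 219 and 223 reads. It had 0 reads in 11 of 12 edited libraries and 2 reads, or 0.365 TPM, in SAP30-KO1 replicate 2. The parental and edited values did not overlap.

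On a floor of 3 reads per library, TFF2 was at least 85.9-fold lower in SAP30-KO2, 86.1-fold lower in SIN3A+SIN3B-DKO1, 86.5-fold lower in SIN3A+SIN3B-DKO2, 84.0-fold lower in MLL1-KO1, and 72.4-fold lower in MLL1-KO2. In SAP30-KO1, the read rate of parental cells was 233 times as high, with an exact (Clopper-Pearson) 95% counting interval from 64.1 to 1928. Both reads of that line came from replicate 2, and without this library the bound was at least 74.7-fold. Intervals and floors cover counting error only. In bulk RNA, fewer cells with the transcript and less transcript per cell cannot be told apart.

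TFF1 (ENSG00000160182), the classical estrogen-induced trefoil factor of breast cancer cells, stood at 11.6 and 16.5 TPM in the parental libraries, from 41 and 57 reads. A single read, or 0.241 TPM, was found in SIN3A+SIN3B-DKO2 replicate 1, and the other 11 of 12 edited libraries were at 0. The bound was at least 16.1-fold lower in MLL1-KO2 and reached 19.1-fold in SIN3A+SIN3B-DKO1, with the other lines at 0 between them. In SIN3A+SIN3B-DKO2, the parental read rate was 115 times as high (exact 95% counting interval 20.2 to 4589).

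TFF3 (ENSG00000160180), the trefoil factor of intestinal goblet cells, was the least abundant. It stood at 5.67 and 5.82 TPM in the parental libraries, from 43 reads in each, and had 0 reads in 12 of 12 edited libraries. The bounds lay between at least 14.1-fold lower in MLL1-KO2 and at least 16.8-fold lower in SIN3A+SIN3B-DKO2. With so few parental reads, the depth does not allow a larger bound, so the smaller bounds of TFF1 and TFF3 do not show a smaller loss than that of TFF2.

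AGR2 (ENSG00000106541), which lies on the minus strand at chr7:16831435-16873057, was by far the highest of the 4 genes in parental cells. It stood at 161 and 175 TPM, from 1135 and 1202 reads, above 91.0% of the genes tested, compared with 64.4% for TFF2, 36.0% for TFF1, and 22.0% for TFF3. On the TPM scale, which is per transcript length, the order in both parental libraries was AGR2, TFF2, TFF1, and TFF3, and no neighbors in this order overlapped.

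**Figure D1:**
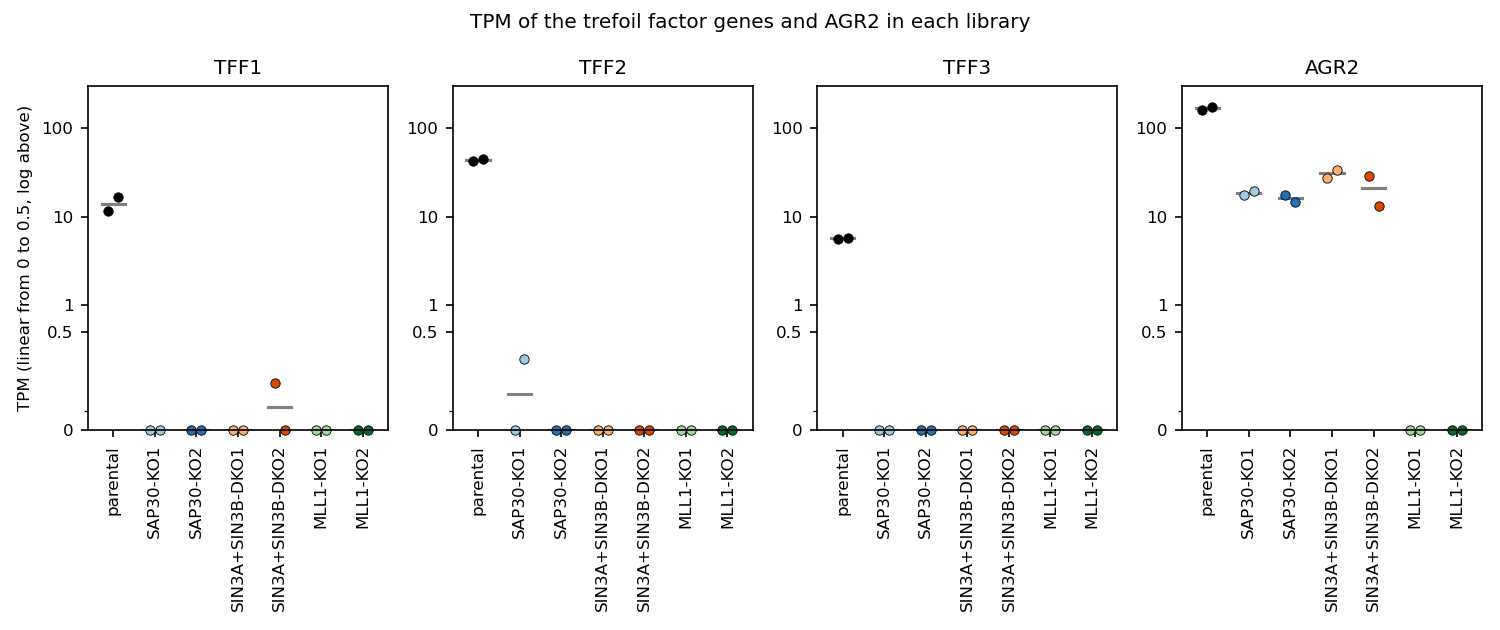
TPM (vertical axis, linear from 0 to 0.5 and logarithmic above) of TFF1, TFF2, TFF3, and AGR2 in each of the 14 libraries, with 1 point per library and a grey bar at the mean of the 2 libraries of a condition. The trefoil factor genes are at or near 0 in all edited lines, while AGR2 holds an intermediate level from 13.3 to 34.2 TPM in the SAP30-KO and SIN3A+SIN3B-DKO lines and is at 0 in the 4 MLL1-KO libraries.

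Unlike the trefoil factors, AGR2 took 3 levels. It was at 17.5 and 19.8 TPM in SAP30-KO1 and at 17.5 and 14.7 TPM in SAP30-KO2, from 118 to 151 reads per library. It was at 27.5 and 34.2 TPM in SIN3A+SIN3B-DKO1 and at 28.8 and 13.3 TPM in SIN3A+SIN3B-DKO2, from 108 to 272 reads per library. All 4 MLL1-KO libraries had 0 reads. The parental libraries stood above all others, the MLL1-KO libraries stood below all others, and the lines between them overlapped with their neighbors in the order SIN3A+SIN3B-DKO1, SIN3A+SIN3B-DKO2, SAP30-KO1, and SAP30-KO2.

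The parental read rate of AGR2 was 8.95 times that of SAP30-KO1 (exact 95% counting interval 7.90 to 10.2) and 10.4 times that of SAP30-KO2 (9.15 to 11.9). It was 5.44 times that of SIN3A+SIN3B-DKO1 (4.94 to 6.01) and 7.93 times that of SIN3A+SIN3B-DKO2 (7.08 to 8.90). AGR2 was at least 444-fold lower in MLL1-KO1 and at least 383-fold lower in MLL1-KO2. On the log2(TPM + 0.5) scale, the differences from parental cells were -3.13 and -3.34 in the SAP30-KO lines and -2.43 and -3.06 in the SIN3A+SIN3B-DKO lines, each with an SE of 0.26. All of these comparisons share the same 2 parental libraries.

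All 4 genes were thus lower in both lines of each genotype. In the fit over all genes, 6.79% were called lower than parental in both SAP30-KO lines, 5.99% in both SIN3A+SIN3B-DKO lines, 11.4% in both MLL1-KO lines, and 2.67% in all 6 lines, where 0.945% were called higher (limma, Benjamini-Hochberg adjusted p under 0.05 and at least 1.5-fold). Since the genes were chosen on these contrasts, nothing is read from their count.

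Contrasts without the parental libraries were not used for the choice, and they were tested for AGR2. The mean of the SAP30-KO lines was 17.4 ± 2.11 TPM over 4 libraries and that of the SIN3A+SIN3B-DKO lines 25.9 ± 8.89 TPM over 4 libraries. The log2 difference was -0.49 (SE 0.18, 95% interval -0.90 to -0.09, limma adjusted p = 0.0464), which is 1.41-fold and under the 1.5-fold minimum, so AGR2 was not called. By the same criteria, 7.47% of the genes tested were called between these genotypes. Against parental cells, AGR2 was at -2.43 in SIN3A+SIN3B-DKO1 and -3.06 in SIN3A+SIN3B-DKO2, beside -3.13 and -3.34 in SAP30-KO1 and SAP30-KO2. By line means, SIN3A+SIN3B-DKO1 was thus farther from the SAP30-KO lines than SIN3A+SIN3B-DKO2. This order rests on replicate 2 of SIN3A+SIN3B-DKO2 (13.3 TPM). Replicate 1 of that line (28.8 TPM) lay between the SIN3A+SIN3B-DKO1 libraries (27.5 and 34.2 TPM). The size of the difference between the genotypes depended on SIN3A+SIN3B-DKO2, whose libraries were far apart. Without its replicate 2 the log2 difference was -0.76 and was called, and without its replicate 1 it was -0.22. Between lines of 1 genotype, AGR2 differed by 0.21 on the log2 scale for SAP30-KO1 minus SAP30-KO2 (SE 0.26, 95% interval -0.37 to 0.79, limma adjusted p = 0.757, with 0.148% of genes called) and by 0.63 for SIN3A+SIN3B-DKO1 minus SIN3A+SIN3B-DKO2 (SE 0.26, 95% interval 0.06 to 1.21, adjusted p = 0.140, with 2.23% of genes called). Neither passed the test.

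A promoter sequence was available for AGR2 and AGR3 in the RefSeq table used here, and that of AGR2 is shown because AGR2 was the one gene with graded levels. It spans 250 bases before to 50 bases after the annotated start on the minus strand of GRCh38.p14, chr7:16804950-16805249, printed 5′ to 3′ with each CG dinucleotide in capitals.
AGR2 promoter: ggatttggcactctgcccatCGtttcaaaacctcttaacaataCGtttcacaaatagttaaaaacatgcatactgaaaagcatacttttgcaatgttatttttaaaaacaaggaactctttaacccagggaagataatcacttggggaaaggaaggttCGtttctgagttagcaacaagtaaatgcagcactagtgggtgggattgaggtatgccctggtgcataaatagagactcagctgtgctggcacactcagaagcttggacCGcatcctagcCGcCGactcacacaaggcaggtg
The start of this window is that of RefSeq, while the AGR2 position and neighbor distances in this text use the GENCODE start on GRCh37. These starts were not compared and need not be the same. The window holds 6 CG dinucleotides against a median of 14 over 35116 promoters of the same length, and 36.8% of promoters hold as few or fewer. On both strands, the GATA core AGATAA was found once, at position -119 from the start, and 10.3% of all promoters hold it. No match was found for the letters TGTTTAC (a FOXA core, in 3.42% of promoters), TGANTCA (an AP-1 core, in 7.71%), or ACGTG (a hypoxia response core, in 21.4%).

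Genes beside the trefoil factors were examined because the 3 genes lie within a short stretch of chromosome 21. On the side of TFF1, the next 3 genes with a detectable parental level were lower as well. TMPRSS3, a serine protease gene whose start lies 45.1 kb from that of TFF2, had 14 and 26 reads in the parental libraries and 0 reads in 12 of 12 edited libraries, and it was too low to be tested. SLC37A1, a sugar phosphate exchanger gene at 145 kb, was at 4.83 ± 0.605 TPM in parental cells, with 212 reads in all. It had 18 and 9 reads in SAP30-KO1 and SAP30-KO2, 3 and 32 in SIN3A+SIN3B-DKO1 and SIN3A+SIN3B-DKO2, and 0 and 1 in MLL1-KO1 and MLL1-KO2. PDE9A, a cyclic GMP phosphodiesterase gene at 303 kb, was at 7.31 ± 1.03 TPM in parental cells with 230 reads in all, and it had 3 reads in all edited libraries together. SLC37A1 and PDE9A passed the filter only through the parental libraries, so no test is given for them.

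On the side of TFF3, the sterol transporter gene ABCG1, at -151 kb, had 4 and 8 reads in the parental libraries and 0 reads in 12 of 12 edited libraries, and it was too low to be tested. Beyond PDE9A, the genes WDR4, NDUFV3, PKNOX1, and U2AF1, from 529 to 757 kb, were not called in any line, and U2AF1, a splicing factor gene, was at 297 ± 9.14 TPM in parental cells and at 293, 300, 282, 306, 322, and 271 TPM on average in the 6 lines. Beyond ABCG1, PRDM15 and ZBTB21 were not called in any line, and C2CD2, at -397 kb, was called lower in SIN3A+SIN3B-DKO1 (-0.85, SE 0.08), with values of -0.48, -0.44, -0.48, 0.04, and 0.22 in SAP30-KO1, SAP30-KO2, SIN3A+SIN3B-DKO2, MLL1-KO1, and MLL1-KO2. RIPK4, a kinase gene of epithelia at -584 kb, rose in the MLL1-KO lines, by 1.51 and 1.40 on the log2 scale (SE 0.06), and fell in the SIN3A+SIN3B-DKO lines, with log2 differences of -0.87 and -0.72. The interferon-induced genes MX1 and MX2 fell in the MLL1-KO lines, MX1 with log2 differences of -1.95 in both and MX2 with -0.95 and -1.34, while MX2 rose in the SAP30-KO lines (1.07 and 0.77, SE 0.19). MX1 was also called lower in SIN3A+SIN3B-DKO1 (-0.79) and not in SIN3A+SIN3B-DKO2 (-0.12). Within 1 Mb of the trefoil factor genes, 12 other genes were tested, and 10 of them passed the filter through more than the parental libraries. Of these 10, 0 were called lower and 1 higher in both SAP30-KO lines, beside 6.79% and 6.17% of all genes. The counts were 1 and 0 in both SIN3A+SIN3B-DKO lines, beside 5.99% and 4.70%. In both MLL1-KO lines they were 2 and 1, beside 11.4% and 5.00%. The median log2 difference of the 10 genes lay between -0.04 and 0.12 over the 6 lines.

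**Figure D2:**
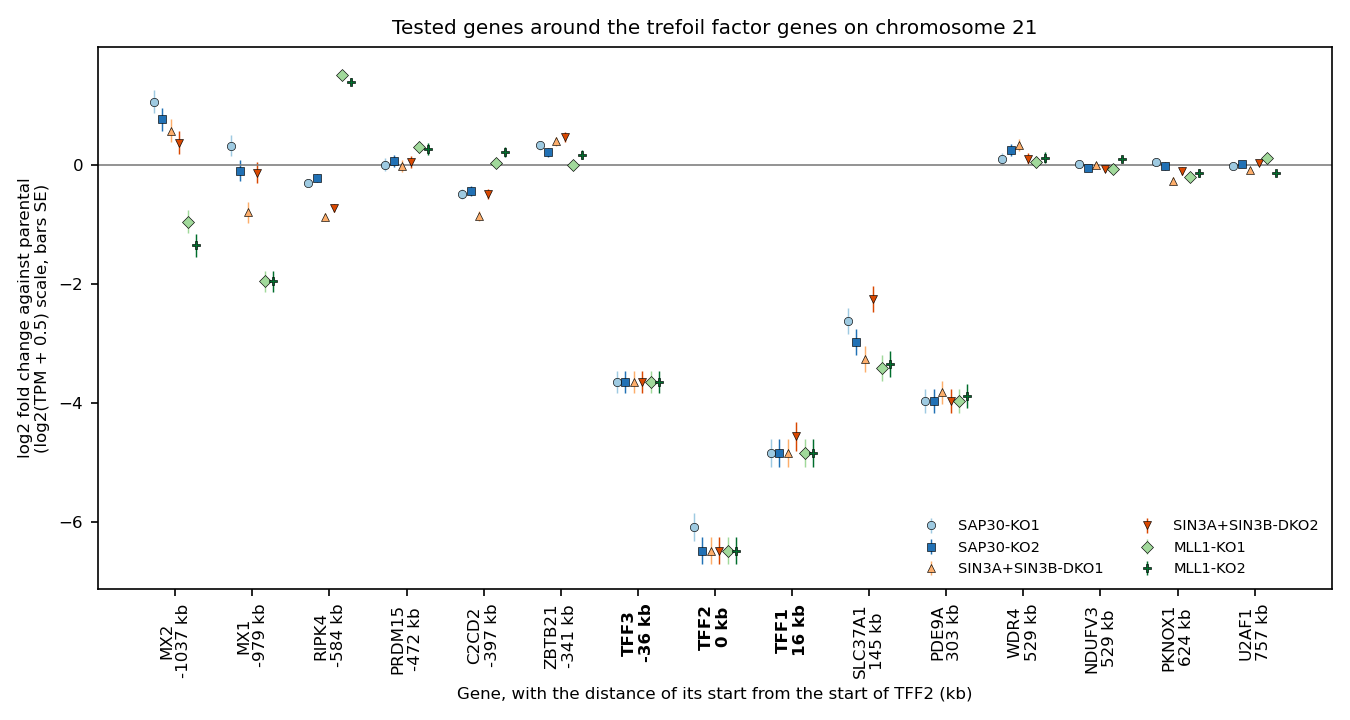
Log2 fold change against parental cells on the log2(TPM + 0.5) scale (vertical axis, bars SE) of the tested genes around TFF3, TFF2, and TFF1 (bold), in order along chromosome 21 with the distance of each start from that of TFF2 in kb, and 1 symbol per edited line. SLC37A1 and PDE9A are low together with the trefoil factor genes, and genes from WDR4 outward are near 0. SLC37A1, PDE9A, and the trefoil factor genes passed the filter only through the parental libraries. For genes at 0 reads in a line, the plotted value is set by the added 0.5 and by the parental level.

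Around AGR2, the neighbor on the same side as its end was lower too. TSPAN13, a tetraspanin gene on the plus strand at chr7:16793380-16824161, with its start at -79.7 kb from that of AGR2, was at 14.4 ± 0.216 TPM in parental cells and at 8.13 ± 0.281 and 7.15 ± 0.774 TPM in the SAP30-KO lines. It was at 2.89 ± 0.231 and 4.13 ± 0.251 TPM in the SIN3A+SIN3B-DKO lines and at 2.05 ± 0.435 and 1.66 ± 0.0689 TPM in the MLL1-KO lines. Log2 differences were -0.79, -0.97, -2.14, -1.69, -2.56, and -2.79 (SE 0.12), and the gene was called lower in all 6 lines with limma adjusted p from 1.01e-08 to 0.000338. Whereas the AGR2 mean was lower in the SAP30-KO lines than in the SIN3A+SIN3B-DKO lines, TSPAN13 was higher in the SAP30-KO lines, with a log2 difference of 1.04 (SE 0.09, limma adjusted p = 3.77e-06).

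The other tested neighbors of AGR2 were ISPD, ANKMY2, BZW2, and AHR, the last encoding the aryl hydrocarbon receptor. In the SAP30-KO and SIN3A+SIN3B-DKO lines their log2 differences lay between 0.02 and 0.57, and none was called. In MLL1-KO1 their values were -0.71, -0.68, -0.33, and -0.39, and in MLL1-KO2 they were -0.76, -0.66, -0.61, and -0.74. Of the 5 neighbors tested, both MLL1-KO lines had calls of lower level for 3 (TSPAN13, ISPD, and ANKMY2), beside 11.4% of all genes. The same call was made for 1 (TSPAN13) in both SAP30-KO and both SIN3A+SIN3B-DKO lines, beside 6.79% and 5.99%. The median of the 5 was -0.68 and -0.74 in the MLL1-KO lines, where the median of all genes was -0.09 and -0.04.

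**Figure D3:**
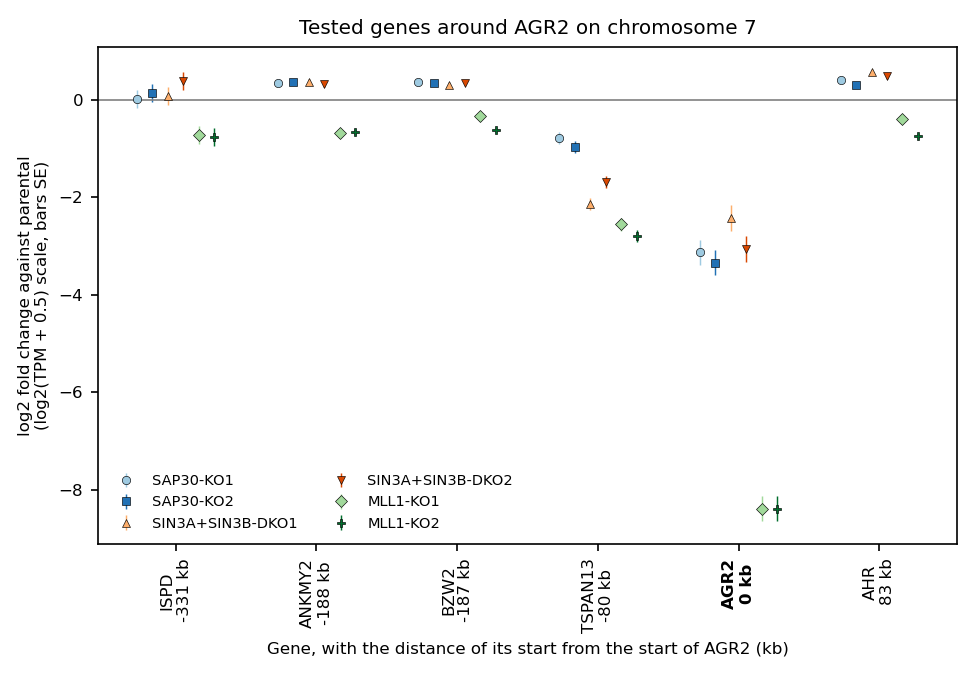
Log2 fold change against parental cells on the log2(TPM + 0.5) scale (vertical axis, bars SE) of AGR2 (bold) and the tested genes around it on chromosome 7, with the distance of each start from that of AGR2 in kb and 1 symbol per edited line. TSPAN13 is low in all 6 lines, and the other 4 neighbors are above 0 in the SAP30-KO and SIN3A+SIN3B-DKO lines and below 0 in the MLL1-KO lines. The MLL1-KO values of AGR2 come from 0 reads and are set by the added 0.5.

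Genes present in parental cells and nearly absent from all edited libraries were counted. Of 11663 genes with at least 40 reads in both parental libraries, 15 (0.129%) had at most 3 reads in each edited library, and 0 genes showed the opposite pattern. TFF1, TFF2, TFF3, and PDE9A were among the 15, which makes 4 on chromosome 21. The others were CHDH, COCH, DAPK1, FAM109B, GCM1, GLB1L2, GLB1L3, LRP3, SCARA3, SUSD3, and VAT1L. The limits of 40 and 3 reads were set after the values were seen, with TFF1 (at least 41 reads) and TFF3 (43) just inside them, and the genes were chosen on the same values, so nothing is read from these counts. Of 11269 genes with at least 40 reads in each of the 10 parental, SAP30-KO, and SIN3A+SIN3B-DKO libraries, AGR2 was 1 of 3 (0.0266%) with 0 reads in all 4 MLL1-KO libraries, together with EMR1 and ZNF257. AGR2 was chosen for its loss in the MLL1-KO lines, so nothing is read from this count either.

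Patterns over the 14 libraries were compared by Pearson correlation of log2(TPM + 0.5). The genes most like TFF2 were FAM109B, TFF3, RARRES2, MIR769, and COCH, each with r of 0.996. As TFF2 falls into a parental and an edited cluster, these values say only that the genes were present in parental cells (FAM109B at 7.10 ± 0.431, COCH at 6.72 ± 0.0213, and RARRES2 at 2.09 ± 0.0389 TPM) and at or near 0 elsewhere. The genes most like AGR2 were ZDHHC7 (r = 0.998), TM7SF2 (0.988), CNKSR3, SDPR, and RNF208 (0.987 each). They shared its 3 levels with smaller differences. ZDHHC7, a palmitoyltransferase gene, was at 136 ± 2.35 TPM in parental cells, at 102 ± 0.762 and 104 ± 0.149 TPM in the SAP30-KO lines, at 108 ± 2.89 and 105 ± 8.24 TPM in the SIN3A+SIN3B-DKO lines, and at 62.6 ± 1.58 and 64.0 ± 0.397 TPM in the MLL1-KO lines. SDPR, which encodes a caveolar protein, was at 73.7 ± 0.714 TPM in parental cells, between 44.2 and 51.4 TPM on average in the SAP30-KO and SIN3A+SIN3B-DKO lines, and at 16.5 ± 2.11 and 17.9 ± 0.0366 TPM in the MLL1-KO lines. The libraries share conditions, and these correlations are a description.

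Partners and receptors of trefoil factors and AGR2 were mostly too low to test, with 12 of 26 measured genes passing the filter. The gel-forming mucin genes MUC2, MUC5B, and MUC6 had at most 3, 72, and 1 reads in any library. In the SAP30-KO lines, 4 of the 12 tested genes were called lower in both lines and 1 higher, beside 6.79% and 6.17% of all genes. In the SIN3A+SIN3B-DKO lines the counts were 3 and 1, beside 5.99% and 4.70%. In the MLL1-KO lines they were 5 and 0, beside 11.4% and 5.00%. The median log2 difference of the list was -0.32 and -0.40 in the SAP30-KO lines, -0.43 and -0.34 in the SIN3A+SIN3B-DKO lines, and -0.95 and -0.54 in the MLL1-KO lines, while that of all genes tested lay between -0.09 and 0.03. SPINK4, a goblet cell serine protease inhibitor, was at 14.3 ± 2.71 TPM in parental cells and fell in all 6 lines, with log2 differences from -4.88 in the MLL1-KO lines to -2.64 in SIN3A+SIN3B-DKO2 (SE 0.34). The membrane mucin MUC1 fell in all 6 lines as well, from 5.59 ± 1.09 TPM in parental cells to between 0.604 and 2.45 TPM on average. DMBT1, a secreted scavenger receptor that binds trefoil factors, fell in both SAP30-KO lines (-0.92 and -1.04, SE 0.18) and in both MLL1-KO lines (-2.21 and -1.85). It was also called lower in SIN3A+SIN3B-DKO1 (-0.61) and not in SIN3A+SIN3B-DKO2 (-0.58). CXCR4, a chemokine receptor reported to respond to TFF2, moved the other way in the SAP30-KO lines (1.32 and 1.23, SE 0.14) and the SIN3A+SIN3B-DKO lines (0.78 and 1.08). It fell in MLL1-KO1 (-2.16) and was not called in MLL1-KO2 (0.50). The AGR2 receptor gene LYPD3 was below 1 TPM in parental cells (0.906 ± 0.217) and was not called in any line, while DAG1, which encodes the AGR2 and AGR3 binding protein dystroglycan, fell in the MLL1-KO lines (-1.05 and -1.13, SE 0.05).

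AGR2's own enzyme family was examined next. Of 21 tested genes of the PDI family and ER oxidoreductases, 1 was called lower and 0 higher in both SAP30-KO lines, 1 and 1 in both SIN3A+SIN3B-DKO lines, and 7 and 1 in both MLL1-KO lines. Of all genes tested, 6.79% were called lower and 6.17% higher in the SAP30-KO lines, 5.99% and 4.70% in the SIN3A+SIN3B-DKO lines, and 11.4% and 5.00% in the MLL1-KO lines. TXNDC12, the closest paralog of AGR2 and AGR3, was at 79.1 ± 0.761 TPM in parental cells, was not called in any line, and its log2 differences lay between -0.27 and 0.24 (SE 0.04). P4HB, the PDI archetype, was at 837 ± 4.74 TPM and was not called in any line either. In the MLL1-KO lines, PDIA4 (-0.75 and -0.89, SE 0.08), QSOX1 (-0.95 and -0.92, SE 0.04), and TXNDC5 (-1.01 and -0.72, SE 0.03) fell, and TMX4 rose (0.59 and 1.23, SE 0.07). TXNDC5 was also called lower in both SIN3A+SIN3B-DKO lines (-0.63 in both) and in SAP30-KO1 (-0.59), and it was at -0.56 in SAP30-KO2. TMX4 was called lower in SIN3A+SIN3B-DKO1 (-0.68). With a 2-fold minimum, 0 genes of this family were called in both lines of any genotype. Its median log2 difference lay between -0.16 and -0.08 in the SAP30-KO and SIN3A+SIN3B-DKO lines and was -0.28 and -0.27 in the MLL1-KO lines.

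Among 23 genes of the unfolded protein response, which is known to induce AGR2 in secretory cells, 3 were called lower and 0 higher in both SAP30-KO lines, 0 and 1 in both SIN3A+SIN3B-DKO lines, and 4 and 0 in both MLL1-KO lines. For all genes tested, the shares called lower and higher were 6.79% and 6.17%, 5.99% and 4.70%, and 11.4% and 5.00% in the same order. The median log2 difference of the list was -0.04 and -0.15, 0.26 and 0.00, and -0.44 and -0.38 in the respective lines. HYOU1, an ER chaperone, fell in the SAP30-KO lines (-0.96 and -1.002, SE 0.11) and the MLL1-KO lines (-1.15 and -0.66). CREB3L2, a stress transducer of the ER membrane, fell in the SAP30-KO lines (-0.62 in both, SE 0.05) and the MLL1-KO lines (-1.19 and -1.16). It was also called lower in SIN3A+SIN3B-DKO2 (-0.65) and not in SIN3A+SIN3B-DKO1 (-0.44). DDIT3, which encodes the stress-induced factor CHOP, rose in the SIN3A+SIN3B-DKO lines (1.10 and 0.76, SE 0.11). XBP1, a main regulator of this response, was at 148 ± 9.16 TPM in parental cells and was not called in any line.

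Transcription factors known to act on TFF or AGR genes moved in both directions, with 24 of 31 measured genes tested. In both lines of the genotype, 3 were called lower and 4 higher in the SAP30-KO lines, 3 and 1 in the SIN3A+SIN3B-DKO lines, and 9 and 4 in the MLL1-KO lines. Among all genes tested, 6.79% were called lower and 6.17% higher in both SAP30-KO lines. The shares were 5.99% and 4.70% in both SIN3A+SIN3B-DKO lines and 11.4% and 5.00% in both MLL1-KO lines. The median log2 difference of the list lay between -0.15 and 0.10 over the 6 lines. GATA6, ELF3, and KLF5, factors of epithelial and mucous differentiation, were called lower in all 6 lines. GATA6 fell from 24.7 ± 1.44 TPM to 9.91 ± 0.425 and 9.72 ± 0.407 TPM in the SAP30-KO lines, to 13.6 ± 0.174 and 14.5 ± 0.350 TPM in the SIN3A+SIN3B-DKO lines, and to 5.08 ± 0.1003 and 3.996 ± 0.220 TPM in the MLL1-KO lines. ELF3 fell from 5.84 ± 0.323 TPM to between 0.797 and 2.14 TPM on average in the SAP30-KO and SIN3A+SIN3B-DKO lines and to 0.0758 and 0.0455 TPM in the MLL1-KO lines. KLF5 fell from 56.1 ± 0.983 TPM to between 20.3 and 25.7 TPM on average.

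FOXA2 and SPDEF were low in the MLL1-KO lines. Differences between genotypes were tested for AGR2 and TSPAN13 alone. FOXA2, a forkhead factor of endodermal epithelia, was at 73.4 ± 1.48 TPM in parental cells and was not called in the SAP30-KO and SIN3A+SIN3B-DKO lines, and it fell to 14.7 and 2.07 TPM on average in MLL1-KO1 and MLL1-KO2 (log2 differences -2.29 and -4.86, SE 0.11, limma adjusted p = 2.14e-08 and 5.80e-11). SPDEF, a regulator of goblet cell differentiation, rose from 20.05 ± 1.66 TPM to 49.1 and 63.3 TPM in the SAP30-KO lines (1.27 and 1.64, SE 0.10) and fell to 3.94 and 1.90 TPM in the MLL1-KO lines (-2.21 and -3.10). It was also called higher in SIN3A+SIN3B-DKO1 (0.83) and not in SIN3A+SIN3B-DKO2 (0.19). EPAS1, which encodes a hypoxia-inducible factor subunit, fell in the MLL1-KO lines (-1.26 and -1.88, SE 0.05). ESR1 and FOXA1 had at most 9 and 4 reads in any library.

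**Figure D4:**
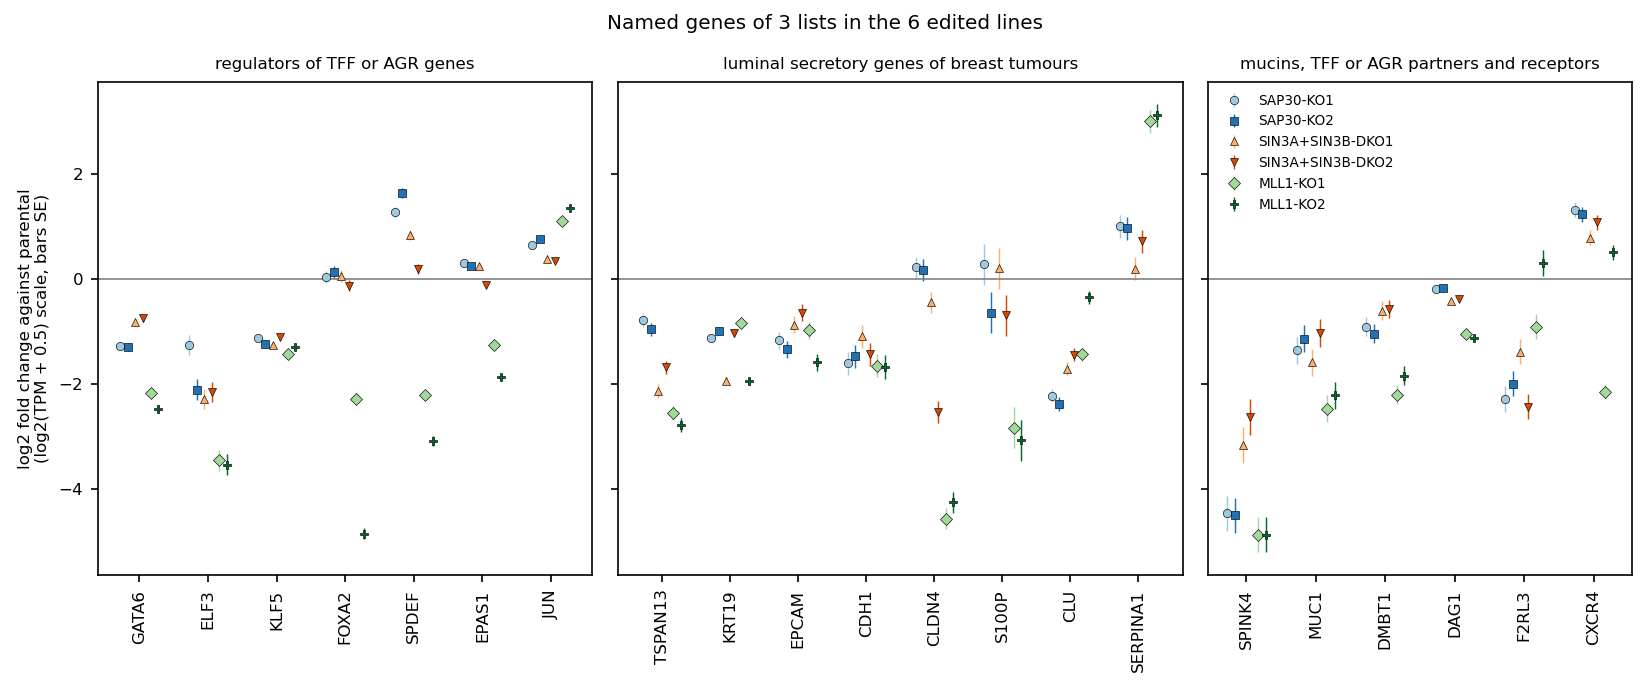
Log2 fold change against parental cells on the log2(TPM + 0.5) scale (vertical axis, bars SE) for named genes from 3 of the gene lists, with 1 symbol per edited line. GATA6, ELF3, KLF5, TSPAN13, KRT19, EPCAM, SPINK4, and MUC1 are below 0 in all 6 lines. FOXA2, SPDEF, CLDN4, and S100P are far below 0 in both MLL1-KO lines. CDH1 passed the filter only through the parental libraries and SERPINA1 only through the MLL1-KO libraries, so nothing is read from their directions.

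Luminal and secretory genes mark the tumors in which TFF1, TFF3, and AGR2 are usually high. Of 32 measured genes 19 were tested, but CDH1 passed the filter only through the parental libraries and SERPINA1 and SERPINA5 only through the MLL1-KO libraries. Of the other 16, 6 were called lower and 2 higher in both SAP30-KO lines, 4 and 1 in both SIN3A+SIN3B-DKO lines, and 8 and 0 in both MLL1-KO lines. For all genes tested, the shares called lower and higher were 6.79% and 6.17%, 5.99% and 4.70%, and 11.4% and 5.00% in the same order. The median log2 difference of the 16 was -0.33 and -0.55, -0.39 and -0.51, and -0.82 and -1.67 in the respective lines. That of all genes tested lay between -0.09 and 0.03. KRT19, a luminal keratin, fell from 438 ± 8.76 TPM to between 113 and 243 TPM on average, and EPCAM, an epithelial adhesion molecule, fell from 19.2 ± 0.0498 TPM to between 6.07 and 12.05 TPM on average. KRT19, EPCAM, and TSPAN13 were called lower in all 6 lines. TSPAN1, a tetraspanin, was called higher in all lines but MLL1-KO1 (0.65, 0.72, 0.90, 0.77, and 0.87, SE 0.09, against -0.30 there). CA12, a carbonic anhydrase, rose in the SAP30-KO lines (0.73 and 0.59, SE 0.07) and fell in the MLL1-KO lines (-0.79 and -1.75). It was also called lower in SIN3A+SIN3B-DKO2 (-0.77) and not in SIN3A+SIN3B-DKO1 (-0.49). CLDN4, a tight junction gene, was at 41.9 ± 0.805 TPM in parental cells and at 1.32 and 1.72 TPM on average in the MLL1-KO lines (-4.57 and -4.26, SE 0.20). It was at 6.96 TPM in SIN3A+SIN3B-DKO2 (-2.54), was not called in SIN3A+SIN3B-DKO1 (-0.45), and had values of 0.22 and 0.16 in the SAP30-KO lines. S100P, a calcium-binding protein, fell in the MLL1-KO lines (-2.84 and -3.08, SE 0.39). SERPINA1 was at 0.113 ± 0.160 TPM in parental cells and at 4.36 and 4.74 TPM on average in the MLL1-KO lines, and no test is given for it.

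The TPM of the 32 luminal genes summed to between 2075 and 2140 in the parental libraries and to between 854 and 1447 in the 12 edited libraries. Most of the sum came from KRT8, KRT18, and KRT19, and the other 29 genes summed to between 485 and 500 in the parental and to between 277 and 494 in the edited libraries, the SAP30-KO1 libraries overlapping with parental cells. The 7 genes expected to be low in this line summed to between 73.0 and 76.2 TPM in parental cells and to between 42.2 and 52.2 TPM in the edited libraries. The 6 mesenchymal markers summed to between 7471 and 7623 TPM in parental cells and to between 7394 and 10565 TPM in the edited libraries. Such sums follow their most abundant genes. Of the 5 mesenchymal markers tested, CAV1 was called lower in both SAP30-KO and both SIN3A+SIN3B-DKO lines (6.79% and 5.99% of all genes). CD44 was called higher in both MLL1-KO lines (5.00% of all genes). The part of such cell differences in the loss of TFF1, TFF2, TFF3, and AGR2 was not tested. Counts in the MLL1-KO lines depend on scaling. Of the genes called in both MLL1-KO lines, 1538 were lower and 677 higher as deposited (69.4% lower), and 1170 were lower and 1064 higher after quantile normalization (52.4% lower), which moved the median of all genes by 0.13 in MLL1-KO1 and by 0.06 in MLL1-KO2 on the log2 scale.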

How the data were processed

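According to the submitters' processing notes, the reads were checked with FastQC 0.11.2, aligned with TopHat to hg19, and counted with featureCounts. Libraries were made with the KAPA mRNA HyperPrep kit. The authors deposited 1 table with a value per gene and library and named the values RPKM, but every column adds up to the same total, so they were used as TPM; the gene annotation is not given in the sources used here. A rise of some genes therefore lowers all others.

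For the 13540 genes that reached 1 TPM in 2 or more libraries, limma 3.58.1 (R 4.3.3) was fitted to log2(TPM + 0.5) with 1 mean for each of the 7 conditions and a variance trend, using all 14 libraries. A gene was called at a Benjamini-Hochberg adjusted p under 0.05 and at least 1.5-fold. The paper states no test for these comparisons. The design had been written for RPKM, and the same test was kept for TPM. The fits of the 4 genes against parental cells were made as planned, but no p is given because the genes were chosen on those values. The steps between TPM values gave whole reads for 18519 of 18519 genes with a value above 0 (median 21649072 per library). The tolerance of the search was 0.01 reads, and the largest final distance from a whole read was 0.0368. The search was widened until a step fitted, so this count is no check of the reads. A whole transcript length per gene fixed the step of TFF3, so its reads rest on that length. The reads served for bounds (3 reads per library) and exact intervals, and a count fit (voom) was an alternative. The fit was tested on simulated data.

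The genes, gene lists, and tests were chosen with earlier results of these data known. Named were the 5 genes, the targeted genes, list genes called in all 6 lines or with the largest changes (and list genes named for their role), tested neighbors within 1 Mb, and the 5 genes most like TFF2 and AGR2. Lists were described by counts and medians. Positions are those of GENCODE release 44 on GRCh37, found for 18108 genes. Python 3.11.15, pandas 2.3.3, scipy 1.17.1, and matplotlib 3.10.9 were used. Alternatives were pseudocounts of 0.1 and 1, no filter, quantile and median ratio scaling, a 2-fold minimum, only the groups compared, the replicate block, a running median over 51 neighboring genes subtracted, other windows, and leaving out each library. Other assays of the study were not used here.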

Additional observations from a re-analysis of the deposited data

How the results depend on the processing

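As values without a call, the AGR2 differences from parental cells ranged over 10 alternatives from -3.61 to -3.10 in SAP30-KO1, -3.76 to -3.31 in SAP30-KO2, -2.83 to -2.41 in SIN3A+SIN3B-DKO1, and -3.50 to -3.03 in SIN3A+SIN3B-DKO2. Over leaving out each library they ranged from -3.22 to -3.05 in SAP30-KO1, -3.47 to -3.22 in SAP30-KO2, -2.58 to -2.28 in SIN3A+SIN3B-DKO1, and -3.60 to -2.52 in SIN3A+SIN3B-DKO2. The AGR2 difference between SAP30-KO and SIN3A+SIN3B-DKO ranged from -0.52 to -0.48 under the same 10 alternatives, with limma adjusted p from 0.0128 to 0.126, and from -0.76 (called) to -0.22 over leaving out each library, both ends given by SIN3A+SIN3B-DKO2. A fit that leaves 1 library in a condition assumes that it varies like the others.

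Quantile normalization moved the bound or ratio of TFF2 to 366 in SAP30-KO1, 120 in SAP30-KO2, 94.1 in SIN3A+SIN3B-DKO1, 55.2 in MLL1-KO1, and 56.7 in MLL1-KO2, and the AGR2 bound of MLL1-KO1 to 276 and of MLL1-KO2 to 271. Median ratio scaling moved the TFF2 bound of MLL1-KO1 to 78.6 and of MLL1-KO2 to 70.0 and that of AGR2 to 416 in MLL1-KO1. These are rescalings of the same reads. Over leaving out each library, TFF2 in SAP30-KO1 ranged from 74.7 to 238, since replicate 2 held both reads of that line.

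Of 30 list counts, 15 moved by over 1.5 times with a 2-fold minimum and 10 with the running median subtracted. In the MLL1-KO lines, the PDI family then had 0 and 3 genes called lower instead of 7. Windows of 0.5 Mb and 2 Mb moved 7 and 8 of 24 neighbor counts.

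Libraries with the same replicate number did not deviate together (mean correlation 0.01 over 21 pairs of conditions, from -0.07 to 0.08), so they share only a number. With the replicate block, the AGR2 differences were -3.13, -3.34, -2.43, and -3.06 against parental and -0.49 between the genotypes, and 0 of 30 list counts moved by over 1.5 times (the block fit of the lists was added after the data were seen). Genes with few reads limit what can be seen at this depth.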
